A study of Mus musculus with 7 samples.

Results

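RNA of sorted mouse glioma cells was compared with that of cultured neural progenitors. The 3 mouse gliomas whose titles call them PDGF-B driven were set against the 1 library titled as neural progenitors carrying PDGF-B. These are 4 of the 7 libraries of the series, taken by title, and all 17422 genes listed in each of them entered the comparison. Every animal was BALB/c. The culture and the PDGF-B-labelled gliomas are both given as wild type: precursors of embryonic day 14 were plated on Matrigel in a medium with B27 supplement, basic FGF and EGF (10 ng/ml), and received a retrovirus for PDGF-B, which activates platelet-derived growth factor receptors, and for the red fluorescent protein DsRed. For the gliomas, 20000 transduced cells were injected into the brain of an adult host after 10 days, and the tumour was dissected at the first neurological signs. Glioma cells and culture cells were both sorted for DsRed, so cells of the host should be largely removed from the tumour samples. The other 3 libraries are gliomas labelled EGFRvIII, from Ink/Arf -/- precursors given a truncated EGF receptor that signals without its ligand. Their values are given only for some genes and lists, both where they differ from the PDGF-B-labelled gliomas and where they are similar. A difference from the culture given without them may be shared by both glioma groups. The labels do not state the age of the hosts or of the profiled culture, or the time to symptoms. The PDGF-B-labelled replicates 1, 2 and 3 are called gliomas 1, 2 and 3, and the series describes them as independent tumours.

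High-grade gliomas are malignant tumours of glial character. PDGF is the main mitogen of oligodendrocyte precursor cells, the dividing cells of the postnatal brain that carry the receptor Pdgfra and the proteoglycan NG2 and give rise to myelin-forming oligodendrocytes. Embryonic forebrain precursors grown with FGF and EGF keep features of radial glia and of the ventral telencephalon, and EGF signals through the same receptor that EGFRvIII derives from.

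The driver genes did not match the labels, which bears on every difference below. Egfr (ENSMUSG00000020122; mm10 chromosome 11, 16752203 to 16918158), the receptor for EGF, stood at 4952, 5109 and 3594 CPM (reads scaled to the same library total) in gliomas 1, 2 and 3 and at 282 CPM in the culture. All 3 gliomas labelled PDGF-B were far above the culture, and the gliomas labelled EGFRvIII, at 41.2, 26.9 and 25.6 CPM, lay below it. Pdgfb (ENSMUSG00000000489, chromosome 15, 79995874 to 80014977) stood at 1.95, 2.97 and 4.88 CPM in gliomas 1, 2 and 3 and at 245 CPM in the culture, which carries the vector. The gliomas labelled EGFRvIII held 386, 284 and 277 CPM of Pdgfb, near the level of the culture. Cdkn2a, the product of the Ink/Arf locus, was read at 3.52, 2.94 and 4.99 CPM against 10.7 CPM in the culture and was not called. Cdkn2a stood at 22.7, 26.1 and 11.1 CPM in the gliomas labelled EGFRvIII, which are given as lacking that locus, above the culture and against that label. The libraries are therefore named throughout as labelled, and the oncogene, the genotype and growth as a tumour cannot be told apart in this comparison.

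The deposited values, log2 CPM, were tested gene by gene with limma. A gene was called at a Benjamini-Hochberg adjusted p under 0.05. A log2 difference is the mean of the 3 gliomas minus the culture on the deposited scale, given with its standard error (SE), and it understates changes where a gene has few reads. The CPM printed here had the prior count removed. The culture held 36061670 reads and the 3 gliomas 32513754 to 33753705. The share of CPM from the mitochondrial genome was 4.20% to 6.14% for the gliomas and 9.53% for the culture, which has no replicate, so its spread was taken from the gliomas of both labels. In bulk samples, fewer cells of a type and less RNA per cell cannot be told apart.

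In all, 1647 genes were called, 1346 higher (7.73% of the genes tested) and 301 lower (1.73%) in the PDGF-B-labelled gliomas. The median log2 difference over all genes was 0.037. All 3 gliomas lay above the culture for 7131 genes (40.9%) and below it for 6622 (38.0%), and 417 genes had 0 reads in the culture. The balance of calls depended on the libraries fitted. Counts higher and lower were 779 and 75 without glioma 1, 903 and 151 without glioma 2, and 1655 and 648 without glioma 3. With voom weights, which give less weight to genes of few reads, they were 346 and 207, and in a fit of the 4 libraries alone 624 and 97. A call named below held whichever of the 6 gliomas was left out unless the library that ended it is given. Counts of 1 to 3 called genes in a list often moved by 1 or more genes with 1 glioma left out, and those shifts are given only in part. All gene lists were chosen with earlier results of these data known. Their counts describe these libraries only and test no enrichment, also where the shares of all genes are set beside them. Where no share stands beside a count, the shares are 7.73% called higher and 1.73% called lower. Of the 134 called genes named, 90 were also called with voom weights and 97 in the fit of 4 libraries. Losses in these fits are given gene by gene only in part.

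**Figure D1:**
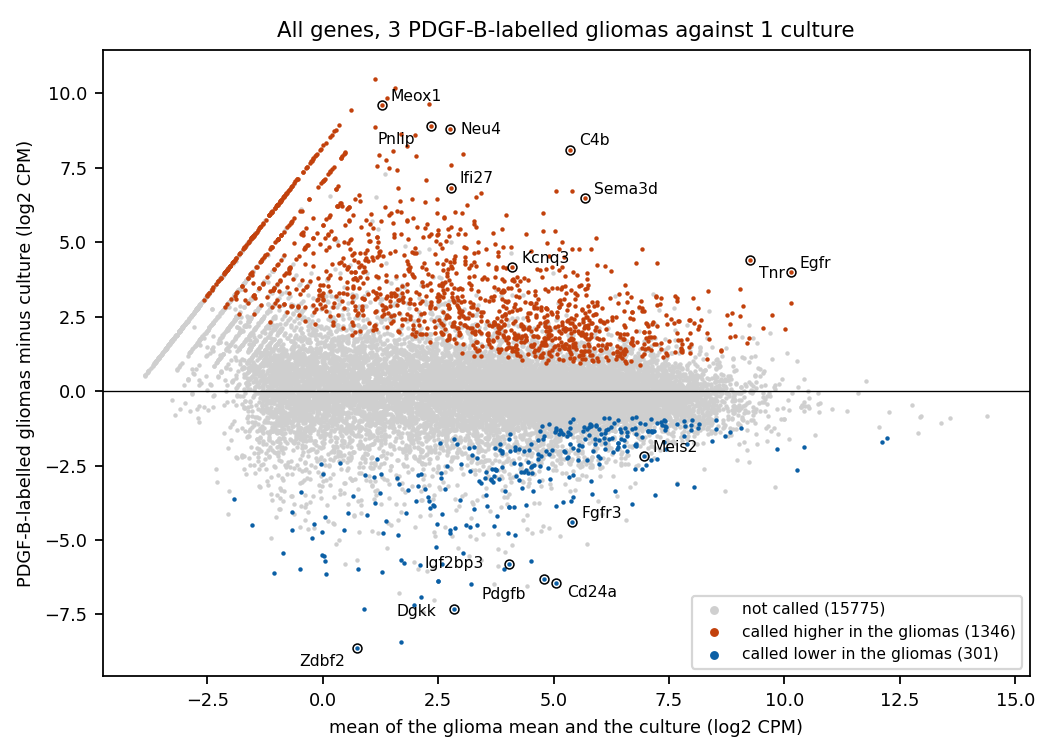
Each point is 1 gene; the horizontal axis is the mean of the glioma mean and the culture in log2 CPM and the vertical axis is the mean of the 3 PDGF-B-labelled gliomas minus the culture in log2 CPM. Genes called higher (1346) are red, those called lower (301) blue, and the diagonal streaks at the left are genes with 0 or a few reads in the culture.

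Called genes of at least 10 CPM were ranked by rise after listed markers of other cell types, predicted genes and pseudogenes were set aside. The first 15 included a lipase, a complement component, and genes known from leukocytes and from interferon responses. Among the markers set aside, the macrophage gene C1qa had a log2 difference of 10.2, above the 9.61 of Meox1, the first of the 15. Pnlip (chromosome 19, 58652498 to 58681788), which encodes pancreatic lipase, stood at 143, 110 and 85.3 CPM in gliomas 1, 2 and 3 and at 0.174 CPM in the culture. The 3 gliomas were close together, and the log2 difference was 8.90 ± 0.36 (SE, limma adjusted p = 0.00028). The gliomas labelled EGFRvIII held similar amounts, 103, 157 and 134 CPM. C4b (chromosome 17, 34728380 to 34743882), a component of the classical complement pathway, stood at 679, 875 and 532 CPM against 2.42 CPM, a log2 difference of 8.10 ± 0.43 (SE, limma adjusted p = 0.000389). Its level was lower in the gliomas labelled EGFRvIII, at 319, 188 and 160 CPM. Ajm1, which encodes a protein of apical junctions, stood at 34.3, 40.0 and 10.5 CPM with no reads in the culture, which puts it at least 326-fold higher (the mean of the gliomas over 3 reads in the culture). Of the 15 genes named by size of rise, Fcgr2b, Fcrls, Itgax, Inpp5d, Rgs1 and Ly86 are known from macrophages and other leukocytes, and each was lower in every PDGF-B-labelled glioma than in any labelled EGFRvIII. Oasl2, Tgtp2 and Gbp4, which encode interferon-induced proteins, were also among the 15. The Tgtp2 call ended without glioma 1 (limma adjusted p = 0.0682), as did that of Gbp4 (0.0845), which ended too without EGFRvIII replicate 3. With voom weights the calls of Pnlip, C4b and Itgax held and those of the other genes named with them here ended.

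Several of the largest falls were in genes known from the embryonic brain. Zdbf2 (chromosome 1, 63273265 to 63314576), an imprinted gene, stood at 33.0 CPM in the culture and at 0.0583, 0.0303 and 0 CPM in gliomas 1, 2 and 3, a log2 difference of -8.62 ± 1.64 (SE, limma adjusted p = 0.0209). The gliomas held no more than a few reads of it. Dgkk, a diacylglycerol kinase, fell from 90.4 CPM to 0.524, 0.212 and 1.09 CPM. Prdm16, a regulator of radial glia, fell from 23.4 CPM to 0.0291, 0.0303 and 0.364 CPM, and Gjc1, which encodes a gap junction protein, from 46.8 CPM to 0.320, 0.0909 and 0.560 CPM. Igf2bp3, an RNA-binding protein of fetal tissue, fell from 123 CPM to 2.23, 2.74 and 1.59 CPM (log2 difference -5.81 ± 0.66, SE, limma adjusted p = 0.00368). The gliomas labelled EGFRvIII were low for these genes too, with Dgkk at 1.78, 1.23 and 2.53 CPM and Igf2bp3 at 1.08, 2.74 and 3.08 CPM.

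In the PDGF and EGF families, receptors were called higher and ligands in both directions. Of 16 measured ligands and receptors, 4 were called higher and 2 lower, with a median log2 difference of -0.03. Erbb3, a receptor for neuregulins, stood at 132, 145 and 118 CPM in the gliomas and at 3.36 CPM in the culture, with a log2 difference of 5.26 ± 0.26 (SE, limma adjusted p = 0.00031). Pdgfra, the receptor for PDGF, stood at 3825, 4797 and 1738 CPM against 408 CPM (log2 difference 2.96 ± 0.55, SE, limma adjusted p = 0.02), and its call ended without glioma 1 (limma adjusted p = 0.057). Of the ligands of Egfr, Tgfa was higher, at 320, 372 and 188 CPM against 62.0 CPM, and Hbegf was lower, at 13.1, 11.4 and 22.03 CPM against 109 CPM. Of 19 targets and feedback inhibitors of the MAPK cascade, which these receptors drive, 1 was called higher and 0 lower by limma. It was Etv4, a transcription factor, at 267, 278 and 179 CPM against 72.8 CPM, and its call ended without glioma 1 (limma adjusted p = 0.0831) and without glioma 2. The median of these 19 genes was -0.11, close to that of all genes.

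Members of the FGF, Notch, BMP and Wnt pathways were called in both directions. Fgfr3, an FGF receptor of radial glia and astrocytes, stood at 194 CPM in the culture and at 5.40, 7.76 and 18.5 CPM in the gliomas (log2 difference -4.39 ± 0.83, SE, limma adjusted p = 0.0206). The intracellular FGF family members Fgf11 and Fgf12 were higher, Fgf11 at 53.1, 66.8 and 58.8 CPM against 14.6 CPM and Fgf12 at 75.9, 69.0 and 44.8 CPM against 12.6 CPM. Of 24 TGF-beta and BMP genes, 4 were called higher and 4 lower, against 7.73% and 1.73% of all genes. Id1 and Id4, inhibitors of helix-loop-helix factors that BMP signals induce, were lower: Id1 stood at 33.3 CPM in the culture and 0.641, 0.576 and 1.57 CPM in the gliomas, and Id4 at 32.3 CPM and 0.262, 0.391 and 1.23 CPM. Smad7, an inhibitor of TGF-beta signals, was higher, at 11.04, 12.8 and 11.6 CPM against 3.04 CPM, a call that ended with voom weights (limma adjusted p = 0.0607). Of 19 Notch genes, 1 was called higher and 2 lower, against 7.73% and 1.73% of all genes, and 14 lay below the culture in all 3 gliomas, against 38.0% of all genes. With voom weights, in the fit of 4 libraries or with any 1 glioma but glioma 3 left out, 0 Notch genes were called higher. Hes5, a target of Notch, stood at 3.49, 6.51 and 4.69 CPM against 49.4 CPM (log2 difference -3.36 ± 0.60, SE, limma adjusted p = 0.0167). Hey1, another target, stood at 33.2, 48.1 and 37.7 CPM against 117 CPM, a call that ended without glioma 1 (limma adjusted p = 0.0715). The count of TGF-beta and BMP genes called higher was 1 without glioma 2, 2 without EGFRvIII replicate 3 and 0 with voom weights. The count of them called lower was 2 without glioma 1, glioma 2 or EGFRvIII replicate 3. Without glioma 3 there were 6 Notch genes called lower. The Wnt list, 25 genes, had 4 called higher and 2 lower, against the same shares of all genes. Sfrp1, a secreted inhibitor of Wnt, was lower, at 7.48, 7.26 and 4.13 CPM against 35.5 CPM. No Wnt gene was called higher without glioma 1, without glioma 2, without EGFRvIII replicate 3 or with voom weights.

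Of 27 measured regulators that place cells in the embryonic forebrain, 1 was called higher and 9 lower, against 7.73% and 1.73% of all genes, and 21 lay below the culture in all 3 gliomas. The median log2 difference was -2.59. Meis2, a homeobox factor of the striatal lineage, stood at 263 CPM in the culture and at 53.5, 62.4 and 57.7 CPM in the gliomas, which lay close together (log2 difference -2.19 ± 0.24, SE, limma adjusted p = 0.00319). Lhx2, which specifies cortex, stood at 71.6 CPM and 11.04, 9.30 and 16.2 CPM, and Dlx1, a factor of ventral forebrain and interneurons, at 24.9 CPM and 0.350, 0.273 and 0.644 CPM. Otx1, a forebrain homeobox gene, stood at 48.2 CPM and 0.350, 0.0303 and 1.68 CPM, and its call ended without glioma 1 (limma adjusted p = 0.082), EGFRvIII replicate 2 or EGFRvIII replicate 3. Gsx1, a ventral progenitor factor, was the member called higher, at 36.2, 43.6 and 35.7 CPM against 11.7 CPM. The number called lower was 4 without glioma 1 and 5 without EGFRvIII replicate 3.

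Homeobox genes of other body regions lay mostly on the other side. Of 13 measured Hox, Irx, Meox, En and Gbx genes, 2 were called higher and 0 lower, against 7.73% and 1.73% of all genes. In all 3 gliomas, 10 lay above the culture, against 40.9% of all genes. Many of these genes had few reads: 3 had 0 reads in the culture, and 8 reached a mean of at least 1 CPM. The median log2 difference was 3.43, or 2.00 with a prior count of 8 reads. Meox1 (chromosome 11, 101877510 to 101894374), a homeobox gene of the somites, stood at 90.9, 65.5 and 52.2 CPM in the gliomas and at 1 read in the culture, and at 15.8, 3.50 and 3.52 CPM in the gliomas labelled EGFRvIII. Its log2 difference from the culture was 9.61 ± 0.85 (SE, limma adjusted p = 0.0019). Irx1, a factor of neural and limb patterning, stood at 23.3, 34.6 and 11.3 CPM against 0.695 CPM, with 16.4, 9.21 and 12.4 CPM in the gliomas labelled EGFRvIII. Both calls ended with voom weights (limma adjusted p = 0.0652 and 0.0741).

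Of 21 measured genes of radial glia and neural stem cells, 0 were called higher and 8 lower by limma, against 7.73% and 1.73% of all genes. In all 3 gliomas, 17 lay below the culture, against 38.0% of all genes. Prom1, which encodes the stem cell surface protein CD133, stood at 35.0 CPM in the culture and at 0.924, 0.697 and 2.85 CPM in the gliomas (log2 difference -4.76 ± 0.86, SE, limma adjusted p = 0.0168). Sox2, which neural stem cells and oligodendrocyte precursors share, stood at 397 CPM and 137, 162 and 186 CPM. Its call ended without glioma 1 (limma adjusted p = 0.111), glioma 2 or EGFRvIII replicate 3, and with voom weights. Sox9, a glial fate factor, stood at 191 CPM and 14.6, 9.45 and 36.8 CPM, a call that ended without glioma 1 (limma adjusted p = 0.0519). Of 22 neuroblast genes, 2 were called higher and 5 lower, or 1 and 3 without glioma 1 or glioma 2. Cd24a, a surface protein of neuroblasts, stood at 311 CPM in the culture and 1.17, 3.91 and 9.21 CPM in the gliomas (log2 difference -6.45 ± 1.14, SE, limma adjusted p = 0.0158). Gad1, the enzyme that makes GABA, was called higher instead, at 82.2, 98.8 and 54.6 CPM against 12.7 CPM, though not with voom weights (limma adjusted p = 0.061). For the stem cell and patterning lists, the median log2 difference was nearest to 0 in glioma 3, at -1.50 and -1.61. The number of stem cell genes called lower was 5 without glioma 1 or glioma 2, and 4 in the fit of 4 libraries.

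**Figure D2:**
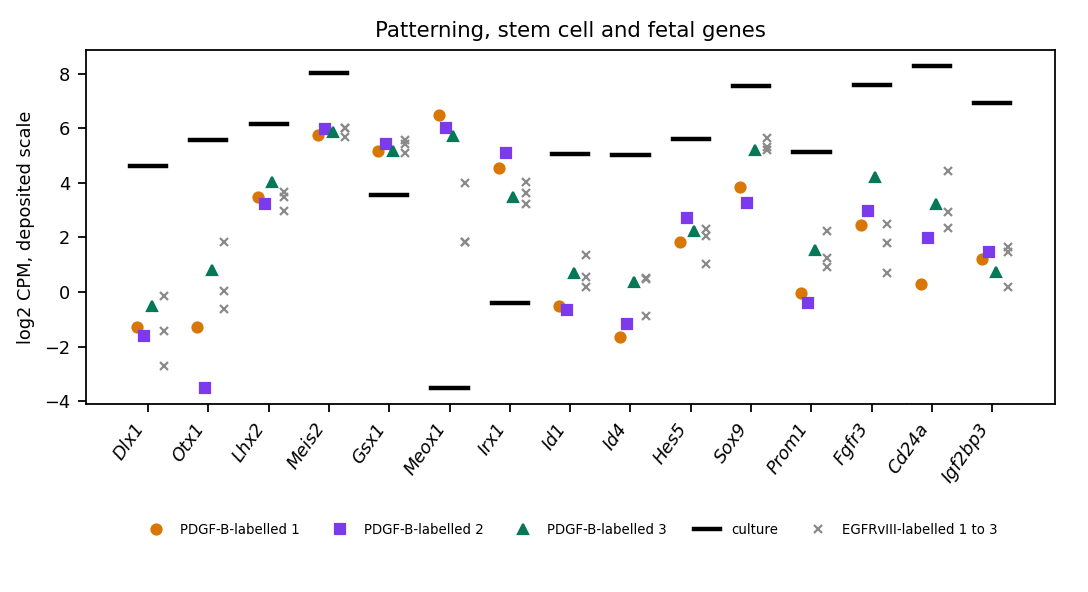
Each column is 1 gene and the vertical axis is its deposited log2 CPM; the bar is the culture, the coloured symbols are PDGF-B-labelled gliomas 1 to 3 and the crosses are the gliomas labelled EGFRvIII. The coloured symbols lie under the bar for 12 of the 15 genes and above it for Gsx1, Meox1 and Irx1.

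Many genes of the oligodendrocyte lineage were called higher, among its regulators and among components of myelin. Of 22 lineage regulators, 6 were called higher and 3 lower. Sox10, which controls the lineage, stood at 692, 1059 and 604 CPM in the gliomas and at 87.7 CPM in the culture (log2 difference 3.12 ± 0.41, SE, limma adjusted p = 0.00596). Zfp488, a zinc finger factor of oligodendrocytes, stood at 89.7, 107 and 82.6 CPM against 18.9 CPM. Lims2, an adhesion-complex protein, had a log2 difference of 3.78 ± 0.31 (SE, limma adjusted p = 0.00154). Nfib, a nuclear factor of gliogenesis, was lower, at 197, 172 and 214 CPM against 612 CPM. The counts were 4 higher and 1 lower without glioma 1.

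Of 23 precursor genes, 15 were called higher and 1 lower by limma, against 7.73% and 1.73% of all genes. Of 18 myelin genes, 12 were called higher and 0 lower. The precursor count called higher was 11 without glioma 1 or with voom weights, and 10 in the fit of 4 libraries. The myelin count was 9 without glioma 1 and 8 without glioma 2. The lists were chosen with this direction known, so the counts only describe these libraries. Matn4, a matrix protein of precursors, stood at 330, 459 and 176 CPM against 16.0 CPM in the culture, and Gpr17, a receptor of committed precursors, at 498, 1267 and 482 CPM against 33.7 CPM. Lnx1, a ubiquitin ligase, stood at 51.8, 61.9 and 35.9 CPM against 4.60 CPM. Tspan2, a tetraspanin of myelin, stood at 72.4, 60.1 and 53.8 CPM against 14.9 CPM. Mag, a glycoprotein of formed myelin, stood at 6.29, 7.70 and 7.96 CPM against 0.463 CPM, and Fa2h, which makes myelin lipids, 11.3, 18.4 and 10.5 CPM against 0.347 CPM. The calls of Mag and Fa2h ended with voom weights (limma adjusted p = 0.0534 and 0.0573), with which 5 myelin genes were called.

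Ion channel and transmitter receptor genes were called mostly higher in the gliomas. Oligodendrocyte precursors are known for receiving synapses from neurons and for carrying sodium, potassium and calcium channels. Of 33 measured cation channel genes, 14 were called higher and 1 lower, against 7.73% and 1.73% of all genes, and 27 lay above the culture in all 3 gliomas, against 40.9%. The median log2 difference was 2.20. Kcnq3 (chromosome 15, 65986387 to 66286642), a subunit of the M-type potassium channel, stood at 87.1, 80.9 and 54.8 CPM in the gliomas and 3.99 CPM in the culture (log2 difference 4.17 ± 0.35, SE, limma adjusted p = 0.00157). The gliomas labelled EGFRvIII lay between, at 15.6, 21.4 and 21.0 CPM. Kcnk2, a mechanosensitive potassium channel, stood at 131, 120 and 91.1 CPM against 24.5 CPM. Kcnk1, a potassium leak channel, stood at 22.2, 35.5 and 10.8 CPM against 0.347 CPM and lost its call with voom weights (limma adjusted p = 0.0724). The sodium channel genes Scn2a and Scn3a were higher too. Scn2a stood at 122, 145 and 57.8 CPM against 7.04 CPM and Scn3a at 158, 193 and 80.8 CPM against 12.8 CPM. Kcnc1, a potassium channel of fast-spiking neurons, was the member called lower, at 29.8, 35.2 and 41.7 CPM against 137 CPM. The number called higher was 8 without glioma 1, and it was 5 in the fit of 4 libraries.

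Of 20 glutamate receptor genes, 8 were called higher and 0 lower by limma, and 14 lay above the culture in all 3 gliomas. Gria4, an AMPA receptor subunit, stood at 581, 410 and 347 CPM against 57.0 CPM in the culture (log2 difference 2.93 ± 0.41, SE, limma adjusted p = 0.00684). Grik4, a kainate receptor subunit, stood at 67.3, 81.8 and 51.2 CPM against 11.6 CPM. Cbln4, a secreted synaptic organiser of the cerebellin family, stood at 21.9, 17.6 and 7.70 CPM without a read in the culture (at least 182-fold higher by the same bound), and its call ended with voom weights (limma adjusted p = 0.0596). Of 13 GABA and glycine receptor genes, 3 were called higher and 0 lower. Gabra3, a GABA receptor subunit, stood at 112, 100 and 45.4 CPM against 2.72 CPM (log2 difference 4.85 ± 0.50, SE, limma adjusted p = 0.00286). Without glioma 1 the counts called higher were 4 for the glutamate receptors and 1 for the GABA and glycine receptors, and of the latter 1 was called without glioma 2 and 5 without glioma 3. Of 16 genes of mature neurons, 2 were called higher and 0 lower, and none was called without glioma 1 or glioma 2.

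Of 30 measured adhesion proteins of synapses and axons, 12 were called higher and 1 lower, with a median log2 difference of 1.45. Cntn1, an adhesion protein of axons and precursors, stood at 1744, 1512 and 1391 CPM in the gliomas and 358 CPM in the culture (log2 difference 2.11 ± 0.28, SE, limma adjusted p = 0.00586). Lrrtm3, a synaptic organiser, stood at 131, 165 and 92.3 CPM against 22.4 CPM, and Dscam, a homophilic recognition protein, at 471, 485 and 352 CPM against 88.7 CPM. Cntnap2, which clusters potassium channels along axons, was lower, at 2.30, 2.42 and 1.32 CPM against 19.5 CPM. The number called higher was 5 without glioma 1 and 20 without glioma 3, and 3 in the fit of 4 libraries.

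**Figure D3:**
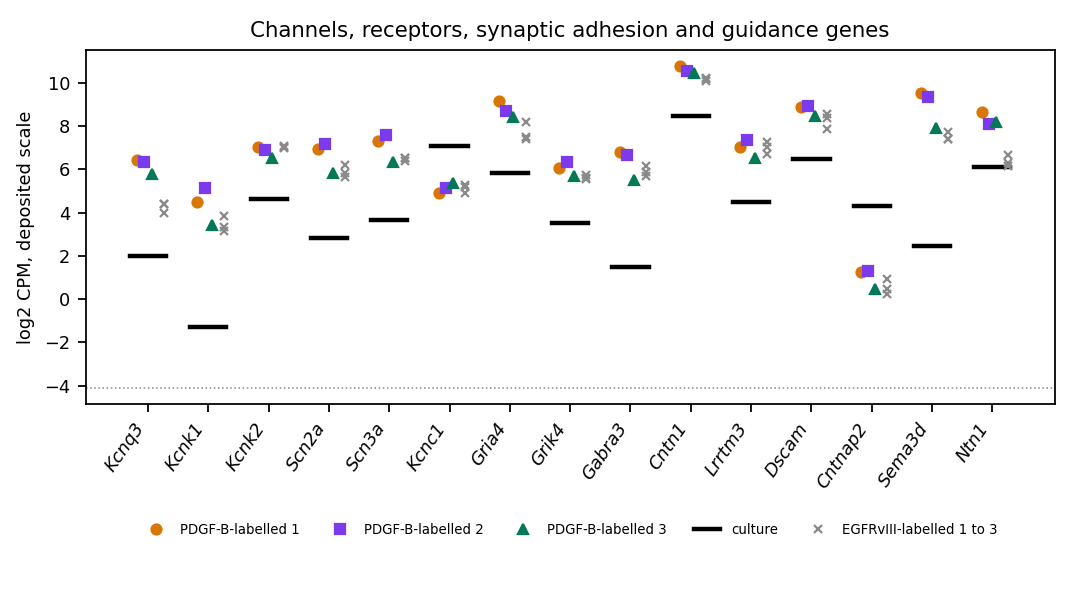
Each column is 1 gene and the vertical axis is its deposited log2 CPM, with the dotted line at the lowest value the files hold; the bar is the culture, the coloured symbols are PDGF-B-labelled gliomas 1 to 3 and the crosses are the gliomas labelled EGFRvIII. All 3 coloured symbols lie above the bar for 13 of the 15 genes and below it for Kcnc1 and Cntnap2.

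Of 49 measured guidance cues and receptors, 9 were called higher and 3 lower, with a median log2 difference of 0.00. Sema3d, a secreted semaphorin, stood at 729, 660 and 241 CPM in the gliomas and 5.38 CPM in the culture (log2 difference 6.48 ± 0.58, SE, limma adjusted p = 0.0019). The gliomas labelled EGFRvIII held 211, 167 and 171 CPM. Sema7a, a membrane-anchored semaphorin, stood at 56.0, 65.8 and 43.0 CPM against 8.71 CPM. Ntn1, the cue netrin 1, stood at 407, 277 and 292 CPM against 70.1 CPM, while the gliomas labelled EGFRvIII, at 100.1, 70.4 and 77.8 CPM, lay close to it or above. Unc5c, a netrin receptor, was higher as well, at 120, 102 and 81.9 CPM against 26.7 CPM. Efnb2, an ephrin, was lower, at 21.1, 16.2 and 16.6 CPM against 85.6 CPM (log2 difference -2.26 ± 0.28, SE, limma adjusted p = 0.0047). The number called lower was 1 without glioma 1, 8 without glioma 3 and 5 without EGFRvIII replicate 2. With voom weights 4 were called higher.

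Matrix genes were called in both directions. Of 27 proteoglycans and proteins of the hyaluronan matrix, 6 were called higher and 2 lower. Tnr, tenascin R of perineuronal nets, stood at 3339, 3561 and 1875 CPM in the gliomas and at 132 CPM in the culture (log2 difference 4.41 ± 0.67, SE, limma adjusted p = 0.0091). Gpc5, a glypican, stood at 129, 181 and 36.7 CPM against 0.984 CPM, a call that ended with voom weights (limma adjusted p = 0.0816), and Sdc3, a syndecan of neural tissue, at 1286, 1496 and 1008 CPM against 219 CPM. Ncan, neurocan, was lower, at 446, 445 and 525 CPM against 1806 CPM. The number called lower was 1 without glioma 1, without glioma 2 and without EGFRvIII replicate 3.

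Of 34 collagens and laminins, 5 were called higher and 0 lower by limma. Col4a1 and Col4a2, the collagen chains of basement membranes, stood at 208, 134 and 175 CPM against 15.6 CPM and at 75.3, 72.5 and 46.1 CPM against 4.80 CPM. In the gliomas labelled EGFRvIII, Col4a1 stood at 50.6, 44.1 and 49.6 CPM. Col11a2, a fibril collagen, stood at 41.6, 82.4 and 37.5 CPM against 3.47 CPM, and Col20a1, a collagen that binds fibrils, at 256, 285 and 137 CPM against 3.37 CPM. The Col20a1 call ended with voom weights (limma adjusted p = 0.0684), and without glioma 3 there were 10 collagens and laminins called lower. Of 29 proteases and inhibitors, 6 were called higher and 1 lower. The membrane metalloproteinases Mmp15 and Mmp16 stood at 2444, 2090 and 1860 CPM against 499.6 CPM and at 322, 252 and 221 CPM against 41.3 CPM. Timp4, an inhibitor of such enzymes, was also higher, at 113, 114 and 108 CPM against 24.5 CPM. The number called higher was 10 without glioma 3, and 0 were called lower without glioma 1 or 2 or without EGFRvIII replicate 1 or 3.

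Of 16 measured enzymes that build, attach or trim sialic acid, 6 were called higher and 0 lower. Neu4, a sialidase, stood at 150, 233 and 81.4 CPM in the gliomas and 0.261 CPM in the culture, and at 13.8, 1.14 and 2.07 CPM in the gliomas labelled EGFRvIII. B4galnt1, which makes complex gangliosides, stood at 62.4, 77.4 and 47.0 CPM against 5.79 CPM (log2 difference 3.38 ± 0.33, SE, limma adjusted p = 0.00253). St8sia1, which makes the ganglioside GD3, stood at 94.4, 109 and 64.5 CPM against 21.3 CPM, and St3gal6, another sialyltransferase, at 49.2, 56.8 and 30.4 CPM against 3.81 CPM. The Neu4 call ended with voom weights (limma adjusted p = 0.0763), with which 3 of the genes were called higher. Without glioma 3, 3 of the genes were called lower.

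**Figure D4:**
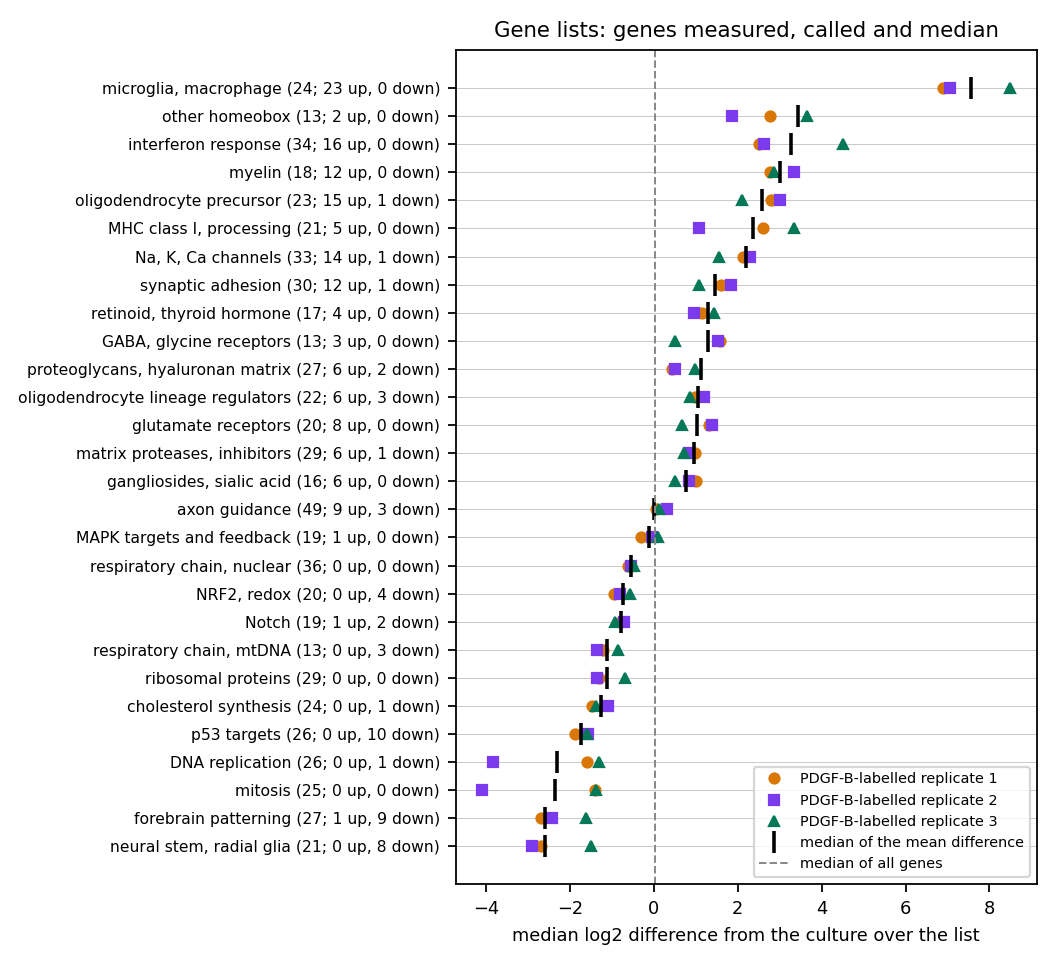
Each row is a gene list with the number of genes measured and called, and the horizontal axis is the median log2 difference from the culture over the list; symbols are gliomas 1 to 3, the bar is the median of the mean difference and the dashed line is the median of all genes (0.037). The mitosis and DNA replication lists are lowest in glioma 2, and the macrophage and interferon lists are highest in glioma 3.

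Genes of respiration, translation and sterol synthesis mostly lay below the culture, and few of them were called. Of 13 genes of the mitochondrial genome, 12 lay below the culture in all 3 gliomas, and 3 were called lower. mt-Nd6, a subunit of complex I, stood at 705, 599 and 865 CPM against 2621 CPM, a call that ended without glioma 1 (limma adjusted p = 0.057). Of 36 nuclear genes of the respiratory chain, 35 lay below the culture, against 38.0% of all genes, with a median log2 difference of -0.55. None was called by limma, 4 were called without EGFRvIII replicate 2, and Atp5a1, a subunit of ATP synthase, stood at 414, 420 and 499 CPM against 613 CPM. All 29 ribosomal protein genes lay below the culture with a median of -1.11 and none called, or 7 without EGFRvIII replicate 2. Of 24 cholesterol synthesis genes, 22 lay below the culture and 1 was called lower. It was Cyp51, a demethylase of the pathway, at 82.6, 104 and 92.4 CPM against 305 CPM (log2 difference -1.72 ± 0.33, SE, limma adjusted p = 0.0208), a call that ended without glioma 1 (limma adjusted p = 0.0665). Without EGFRvIII replicate 1 there were 8 called, and without EGFRvIII replicate 3 there were 4. The median difference of the list was -1.48, -1.10 and -1.38 in gliomas 1, 2 and 3, and Srebf2, the transcription factor of the pathway, stood at 210, 274 and 220 CPM against 260 CPM. The number of mitochondrial genes called was 0 without glioma 1, 1 without glioma 2 or EGFRvIII replicate 3, and 6 without EGFRvIII replicate 2.

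Of 31 genes of amino acid transport and synthesis, 2 were called higher and 1 lower, with a median log2 difference of -0.33. Slc7a3, a carrier of cationic amino acids, stood at 50.7, 55.2 and 28.7 CPM in the gliomas and 2.08 CPM in the culture (log2 difference 4.33 ± 0.46, SE, limma adjusted p = 0.00318). Slc6a9, the glycine transporter GlyT1, stood at 117, 115 and 94.5 CPM against 18.2 CPM. Of 20 genes of metal and iron handling, 5 were called higher and 0 lower. The number called higher was 3 without EGFRvIII replicate 1 and 1 with voom weights. Cp, the copper protein ceruloplasmin, stood at 204, 193 and 236 CPM against 13.4 CPM (log2 difference 3.97 ± 0.45, SE, limma adjusted p = 0.00368), with 67.9, 51.6 and 27.8 CPM in the gliomas labelled EGFRvIII. The culture medium held B27 supplement, which as generally sold contains retinoid and thyroid hormone. Of 17 measured genes of those pathways, 4 were called higher (2 with voom weights) and 0 lower. Of 20 targets of glucocorticoid, 1 was called higher and 0 lower. Klf9, a target of thyroid and glucocorticoid hormone, stood at 153, 128 and 154 CPM against 28.3 CPM (log2 difference 2.35 ± 0.25, SE, limma adjusted p = 0.00318). Hr, a thyroid hormone target, stood at 121, 89.4 and 131 CPM against 14.6 CPM. Aldh1a1, which makes retinoic acid, stood at 25.6, 46.3 and 40.3 CPM against 0.092 CPM, a 407-fold ratio (95% interval from counting error 143 to 1853), and its call ended with voom weights (limma adjusted p = 0.0845).

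Mitosis and DNA replication genes lay below the culture in every glioma, furthest in glioma 2. All 25 mitosis genes and all 26 DNA replication genes lay below the culture in all 3 gliomas, with median log2 differences of -2.35 and -2.31. Of the mitosis genes 0 were called by limma, and of the replication genes 1. Mki67, a marker of cycling cells, stood at 512, 64.6 and 554 CPM in gliomas 1, 2 and 3 and at 1361 CPM in the culture. The mitosis median was -1.40, -4.10 and -1.39 in gliomas 1, 2 and 3, and without glioma 2 there were 9 mitosis genes called lower. The replication gene called, Ccne1 (cyclin E1), stood at 8.16, 2.58 and 12.02 CPM against 61.0 CPM, and its call ended without glioma 1 (limma adjusted p = 0.0851) or any 1 of the gliomas labelled EGFRvIII. The count of replication genes called was 4 without glioma 3. Of 17 cyclins, cyclin-dependent kinases and members of the Rb family, 1 was called higher and 1 lower, and 11 lay below the culture in all 3 gliomas. The gene called higher was Rbl2, an Rb relative of resting cells, at 74.8, 83.6 and 57.0 CPM against 33.9 CPM, a call that ended without glioma 1 (limma adjusted p = 0.149) or glioma 2, without EGFRvIII replicate 1 or 3 and with voom weights. The gene called lower was Cdk6, a kinase of the G1 phase, which stood at 1.42, 1.49 and 4.62 CPM against 27.5 CPM (log2 difference -3.64 ± 0.68, SE, limma adjusted p = 0.0202), with 11.1, 15.5 and 16.7 CPM in the gliomas labelled EGFRvIII. The alternative catalytic subunits of Polycomb repressive complex 2 were called in opposite directions: Ezh1 stood at 23.8, 28.7 and 24.2 CPM against 7.18 CPM and Ezh2 at 66.1, 38.7 and 75.6 CPM against 204 CPM. The Ezh2 call ended without glioma 1 (limma adjusted p = 0.0757) or without EGFRvIII replicate 1 or 3, and with voom weights.

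Targets of the tumour suppressor p53 were among the lower genes. Of 26 measured, 0 were called higher and 10 lower by limma, against 1.73% of all genes called lower, and 22 lay below the culture in all 3 gliomas. The median log2 difference was -1.74 and lay, glioma by glioma, at -1.87, -1.57 and -1.60. Pmaip1, which encodes the death-promoting protein Noxa, stood at 4.05, 3.55 and 3.22 CPM against 29.5 CPM (log2 difference -3.02 ± 0.43, SE, limma adjusted p = 0.00726). Trp53inp1, a stress-induced partner of p53, stood at 56.6, 55.8 and 50.6 CPM against 305 CPM, and Polk, a polymerase that copies damaged DNA, at 11.3, 12.1 and 13.8 CPM against 42.1 CPM. Eda2r, a death receptor, stood at 15.03, 7.24 and 17.9 CPM against 148 CPM. Ccng1 (cyclin G1) stood at 64.5, 63.2 and 83.7 CPM against 602 CPM, a call that ended without glioma 1 (limma adjusted p = 0.057) or glioma 2. The gliomas labelled EGFRvIII lay nearer to the culture, with Pmaip1 at 25.1, 25.9 and 14.2 CPM and Eda2r at 48.1, 125 and 52.96 CPM. The number called lower was 4 without glioma 1 and 6 without glioma 2 or without EGFRvIII replicate 3.

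Interferon-induced genes had 16 of 34 measured members called higher. Interferons act through a complex that includes STAT2 and IRF9 and binds the interferon-stimulated response element in promoters. The element was searched as GAAANNGAAA on either strand in the 250 bases before each RefSeq start (GRCm38.p6). It was present for 12 of the 25 interferon genes with a promoter window, 48.0%, against 3.25% of all measured genes with a window. Of the 11 interferon genes called higher that have a window, 4 held it (36.4%). It was also present for 48 of 943 genes called higher (5.09%) and 4 of 222 called lower (1.80%). Windows from 3 genes that were called and that hold the element are given, to show where in the promoter of a called gene the element lies. Irgm1 and H2-T23, also called and holding it, are not printed because these stretches lie inside annotated genes, and both calls ended without glioma 1 (limma adjusted p = 0.0569 and 0.0548). Capitals mark each match, here in its reverse form.
Stat2, chr10:128270248-128270315, plus strand: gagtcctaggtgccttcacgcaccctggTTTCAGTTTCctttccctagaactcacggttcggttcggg
Ifit3, chr19:34583343-34583446, plus strand: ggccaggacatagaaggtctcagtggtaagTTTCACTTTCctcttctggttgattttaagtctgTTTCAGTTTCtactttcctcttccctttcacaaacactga
Ifit1, chr19:34640755-34640843, plus strand: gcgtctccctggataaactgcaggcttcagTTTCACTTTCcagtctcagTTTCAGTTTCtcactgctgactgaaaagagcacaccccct
Ifit1 and Ifit3 each hold 2 matches and Stat2 holds 1. A match describes these letters only and does not show that a factor binds there.

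None of the 34 was called lower by limma, and 31 lay above the culture in all 3 gliomas. The median log2 difference was 2.51, 2.63 and 4.51 in gliomas 1, 2 and 3. Ifit3, which restricts viral RNA, stood at 8.45, 9.32 and 21.4 CPM against 0.453 CPM in the culture, and Ifit1, its partner, at 3.82, 6.78 and 14.5 CPM against 0.116 CPM. Stat2, the signal transducer, stood at 44.1, 44.2 and 49.6 CPM against 20.2 CPM. These 3 calls ended with voom weights, that of Stat2 without glioma 1 (limma adjusted p = 0.084) or glioma 2, that of Ifit3 without EGFRvIII replicate 3 (0.0548) and that of Ifit1 without glioma 2 (0.0621) or EGFRvIII replicate 3. Ifit2, which shares their family, stood at 104, 91.1 and 93.7 CPM against 27.0 CPM (log2 difference 1.83 ± 0.21, SE, limma adjusted p = 0.00369). Cmpk2, a mitochondrial nucleotide kinase induced by interferon, stood at 20.9, 26.1 and 20.2 CPM against 3.53 CPM. Ifi27, an interferon-induced gene, stood at 72.3, 62.0 and 85.7 CPM against 0.579 CPM, and the gliomas labelled EGFRvIII held 31.8, 40.4 and 27.6 CPM. The number called higher was 9 without glioma 1, 8 without EGFRvIII replicate 3 and 3 with voom weights.

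Antigen presentation genes lay mostly above the culture, with fewer calls. Of 21 genes of MHC class I and its peptide processing, 5 were called higher and 0 lower, and 18 lay above the culture. Tap2, a peptide transporter, stood at 28.2, 24.6 and 27.4 CPM against 5.17 CPM, a call that ended with voom weights (limma adjusted p = 0.0629). H2-D1, a classical class I gene, stood at 305, 111 and 436 CPM against 8.99 CPM, and its call ended without glioma 1 (limma adjusted p = 0.0715) and with voom weights. The number called was 1 without glioma 1, 3 without EGFRvIII replicate 1 or 3, and 0 with voom weights. Reads of near-identical class I genes may be split between copies, so these levels are uncertain. None of 7 MHC class II genes was called by limma, and 1 was called without glioma 2. Cd74, the class II invariant chain, stood at 17.6, 9.44 and 191 CPM against 0.145 CPM, with most in glioma 3. Of 27 chemokines and cytokines, 8 were called higher and 0 lower. The number called higher was 5 without EGFRvIII replicate 1 and 0 with voom weights. Ccl3, a macrophage chemokine, stood at 7.69, 20.3 and 9.94 CPM against 0.0289 CPM, and Il33, an alarmin of oligodendrocytes and astrocytes, at 27.6, 121 and 25.0 CPM against 0.637 CPM. Both calls ended with voom weights (limma adjusted p = 0.188 and 0.175).

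Of the markers of other cells, those of macrophages were higher beside these immune genes. All 24 microglia and macrophage genes lay above the culture in every glioma and 23 were called (7.73% of all genes were), or 3 with voom weights. Their summed level was 672, 909 and 2558 CPM in gliomas 1, 2 and 3, 25.4 CPM in the culture and 9246 to 20505 CPM in the gliomas labelled EGFRvIII. Of the defining markers, Cx3cr1 stood at 39.2, 58.0 and 99.2 CPM against 0.145 CPM, P2ry12 at 26.2, 28.5 and 26.5 CPM against 1.53 CPM, C1qa at 57.6, 81.6 and 219 CPM against 0.0289 CPM and Ptprc at 7.05, 12.9 and 43.6 CPM against 0.0289 CPM. None of the 4 was at 0 in any library. With voom weights the calls of C1qa (limma adjusted p = 0.129) and Ptprc (0.152) ended. Lyz2, a lysozyme of myeloid cells, stood at 22.4, 19.2 and 613 CPM, so most of it lay in glioma 3, and its call ended without any 1 of the gliomas labelled EGFRvIII (limma adjusted p up to 0.0526) or with voom weights (0.406). The summed interferon list was 733, 568 and 1082 CPM in gliomas 1, 2 and 3, 155 CPM in the culture and 396 to 824 CPM in the gliomas labelled EGFRvIII. The ranges of the 2 glioma groups overlapped for the interferon sum and did not for the macrophage sum, and among the PDGF-B-labelled gliomas both sums were highest in glioma 3. The part of macrophage RNA in the interferon, MHC and cytokine levels was not tested.

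Markers of vessel cells were scarce. Of 9 endothelial genes, 2 were called higher, and their sum was 52.2, 62.8 and 31.7 CPM in the gliomas against 29.7 CPM in the culture. Vwf, von Willebrand factor, stood at 47.5, 49.9 and 11.7 CPM against 0.753 CPM and carried much of that sum. The Vwf call ended with voom weights (limma adjusted p = 0.135). Pecam1 stood at 0.553, 1.15 and 0.840 CPM against 0.174 CPM, Cldn5 at 0.0291, 0.545 and 0.196 CPM against 0 CPM and Cdh5 at 0.262, 0.424 and 0.672 CPM against 0 CPM. The Cdh5 call ended without glioma 1 or 2 or EGFRvIII replicate 1 or 3 (limma adjusted p up to 0.0775), and with voom weights. Mural and fibroblast genes, 13 measured, had 4 called higher and 1 lower (2 higher without glioma 1, 1 in the fit of 4 libraries and 0 with voom weights), with a summed level of 22.2, 13.1 and 30.8 CPM in the gliomas and 28.8 CPM in the culture. Vessels also make Col4a1 and Col4a2, and their part in those levels was not tested. T cell, B cell and neutrophil lists had 2, 2 and 1 measured genes, with sums of at most 3.45, 3.25 and 21.3 CPM in the PDGF-B-labelled gliomas. Of these genes 0, 1 and 1 were called higher, and 0 in each list with voom weights. The other markers of these lists were not among the measured genes. The heat shock genes Hspa1a and Hspa1b, which respond to tissue handling, stood at 49.7, 44.4 and 65.4 CPM against 0.538 CPM and at 43.3, 39.7 and 80.2 CPM against 1.14 CPM. Of 23 immediate early and handling genes, these 2 were called higher and 1 lower, and both calls ended with voom weights (limma adjusted p = 0.0823 and 0.0796). As near-identical copies, they share reads that the counting may split.

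**Figure D5:**
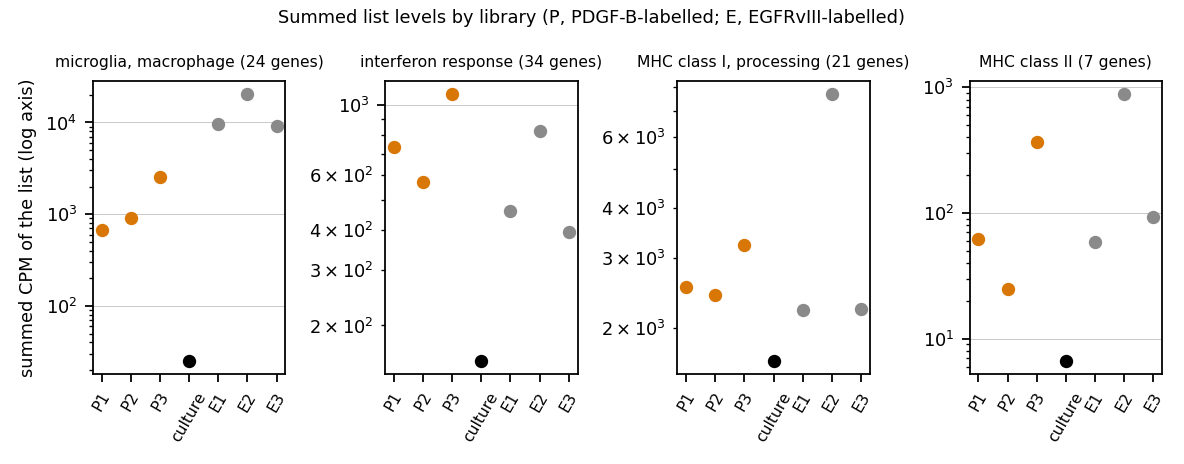
Each panel is a gene list and each point 1 library, with the summed CPM of the list on a log axis; P marks the PDGF-B-labelled gliomas (orange), E those labelled EGFRvIII (grey) and the black point is the culture. The macrophage sum is 672 to 2558 CPM in P and 9246 to 20505 CPM in E, while the interferon sum is 568 to 1082 CPM in P and 396 to 824 CPM in E.

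In the comparison of the 2 glioma groups by limma, PDGF-B-labelled minus EGFRvIII-labelled, 125 genes (0.717%) were called on the higher side and 458 (2.63%) on the lower side. Of the genes described above, those on the higher side included Egfr, Erbb3, Kcnq3, Ntn1, Col4a1, Cp, C4b, Meox1 and Neu4. Those on the lower side included Pdgfb, Cdk6, Pmaip1, Eda2r, Cx3cr1 and C1qa. Slc40a1, the iron exporter ferroportin, stood at 2.48, 3.27 and 2.94 CPM in gliomas 1, 2 and 3, at 79.3, 90.0 and 44.2 CPM in the gliomas labelled EGFRvIII and at 0.289 CPM in the culture, so the PDGF-B-labelled gliomas lay between. The calls between the glioma groups depended on single libraries, since leaving out 1 glioma at a time gave 2 to 308 genes called higher and 2 to 974 called lower. Both counts were highest without glioma 3 and lowest without glioma 1. Of the genes named with values, 36 were called between the glioma groups, and 3 of them, Egfr, Pdgfb and Slc40a1, were called whichever glioma was left out.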

How the data were processed

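RNA of DsRed-sorted cells was sequenced in 6 gliomas and 1 culture, grouped by title. Per the labels' protocol, libraries were made with poly(A) selection or with removal of ribosomal RNA; both are named and it is unclear which applied. STAR, edgeR and mm10 appear in the submitters' processing notes. The deposited values are log2 CPM, per the file headers of 6 files, and the header of EGFRvIII replicate 3 names no unit. How the authors quantified, scaled and filtered genes is not stated in those notes. The values fit estimated counts with a prior of 2 added: only 36.1% to 38.8% of the recovered values were whole reads within 0.02, so no count model was the test. CPM as printed is the recovered reads over the authors' effective library size, and ratio intervals are 95% and cover counting error only. Recovered totals were 32513754 to 39062584 reads per library. A symbol was found for 17254 of the 17422 IDs in GENCODE M21 (GRCm38, which mm10 denotes). Promoters came from RefSeq (GRCm38.p6), with a window for 11649 measured genes.

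Genes were tested with limma 3.58.1 in R 4.3.3 (intensity trend, robust moderation, Benjamini-Hochberg at 0.05 over all genes). The contrast with the culture came from all 7 libraries in 3 groups, and the contrast of the glioma groups from the 6 gliomas. The fit was tested on simulated data in which the culture was given the same spread as the gliomas. That test therefore cannot check whether the culture varies like them. The members and the 59 gene lists were chosen with earlier results of these data known. The rule for named genes takes the drivers, the 15 called genes of largest log2 difference in each direction with at least 10 CPM in the higher group, up to 5 called members per direction in each list, and the abundant members of lists with few calls and of lists of other cell types. The text gives a part of these, and a few such genes are not reported here. P2ry12, Ptprc, Pecam1, Cldn5 and Sox2 are named as defining markers. Promoters were to be shown for up to 6 called genes of each of the interferon and class I lists that hold the element, and 3 are printed (Stat2, Ifit3 and Ifit1). Alternatives covered scaling, the prior, a minimum of 1 CPM, voom weights, moderation, the threshold, the libraries fitted, leaving out each glioma and the replicate block.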

Additional observations from a re-analysis of the deposited data

Results flagged for a closer look

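For the genes below the difference from the culture was not the same in both glioma groups by a direct test: the gliomas labelled PDGF-B were compared with those labelled EGFRvIII by limma, in which the culture cancels, and the adjusted p was under 0.05. Values are log2 differences, PDGF-B-labelled minus EGFRvIII-labelled, with 3 gliomas in each group. The driver genes differed against their labels, with Egfr at 7.20 and Pdgfb at -6.65, and Cdkn2a was lower at -2.31. Of these 36 genes, Egfr, Pdgfb and Slc40a1 (-4.54) were called whichever glioma was left out, 26 in 1 of those 6 fits and Ifi27 in none.

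On the higher side, Erbb3 stood at 1.22, Igfbp7 at 3.01, Lims2 at 1.40, Gpr17 at 2.76, Tspan2 at 1.43, Fa2h at 3.31 and S100b at 2.29. The homeobox gene Meox1 stood at 3.53, the potassium channel Kcnq3 at 1.93, the cerebellin Cbln4 at 3.35 and the guidance cue Ntn1 at 1.97. Of the matrix genes, Col4a1 stood at 1.82, Col4a2 at 1.59, Col11a2 at 3.16 and Col20a1 at 3.62. The sialidase Neu4 stood at 5.43, Cp at 2.19, C4b at 1.68 and Ifi27 at 1.15.

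On the lower side were Cdk6 at -2.70 and the p53 targets Pmaip1 at -2.53 and Eda2r at -2.45. Genes known from macrophages were lower too. Cx3cr1 stood at -3.19, P2ry12 at -2.93, C1qa at -3.73, Ptprc at -2.93, Itgax at -2.87, Fcrls at -3.79, Inpp5d at -3.36, Rgs1 at -3.44, Ly86 at -3.38 and Ccl3 at -3.24.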

How the results depend on the processing

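Against the culture, the 1346 genes called higher and 301 called lower became 346 and 207 with voom weights, 624 and 97 in the fit of the 4 libraries alone, 1152 and 183 without the intensity trend and robust moderation, and 476 and 31 at an adjusted p of 0.01. Leaving out 1 glioma at a time gave 779 to 1655 genes higher and 75 to 654 lower, with the extremes without glioma 1 (779 and 75), without glioma 3 (1655 higher) and without EGFRvIII replicate 2 (654 lower). The other scalings, priors and the CPM minimum kept each count within 1.5 times, and the other scalings moved the median of all genes by at most 0.05 on the log2 scale. Between the glioma groups, the 125 genes called higher and 458 lower became 2 to 308 and 2 to 974 when 1 glioma was left out. With the replicate number as a block they were 5 higher and 13 lower. The deviations of same-numbered gliomas from their group means correlated at 0.175, -0.036 and -0.080. Glioma 1 correlated best with EGFRvIII replicate 1, glioma 2 also with EGFRvIII replicate 1 (0.068) and glioma 3 with EGFRvIII replicate 2 (0.207). With 3 gliomas in each group, these values cannot decide whether the numbers pair the gliomas. No direction of a named gene reversed in any alternative run. Of the 134 named calls, 64 passed in every alternative that tested the gene and 112 whichever PDGF-B-labelled glioma was left out. The cause of the lost calls was not tested. The culture is 1 library, so p-values take its spread from the gliomas, and CPM of a gene with few reads there is limited by counting error.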

Other observations

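Gene groups with few calls are given here as values. Among 20 measured astrocyte genes, the PDGF-B-labelled gliomas had 2 called higher and 1 lower, against 7.73% and 1.73% of all genes, with a median log2 difference of -0.05. S100b, a calcium-binding protein of astrocytes and of oligodendrocyte lineage cells, stood at 88.2, 82.4 and 61.4 CPM in gliomas 1, 2 and 3 and at 0.939 CPM in the culture (log2 difference 6.26 ± 0.46, SE, limma adjusted p = 0.00122). Without glioma 3, 5 of these genes were called higher and 4 lower, and without EGFRvIII replicate 3 there was 1 called higher. Of 14 measured genes of insulin-like growth factor signalling, 1 was called higher and 1 lower, or 2 and 2 without glioma 3 and 1 and 2 without EGFRvIII replicate 1. Igfbp7, a secreted binding protein, stood at 41.9, 73.8 and 15.8 CPM in the gliomas and 1.04 CPM in the culture. The Igfbp7 call ended with voom weights (limma adjusted p = 0.108). This gene is also expressed by vessel cells, whose part in this level was not tested.

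Of 19 measured imprinted genes, 3 were called higher and 2 lower. Rian, a maternally expressed non-coding RNA, stood at 104, 108 and 68.3 CPM against 12.97 CPM (log2 difference 2.81 ± 0.40, SE, limma adjusted p = 0.00719). Grb10, which encodes an adaptor that restrains insulin and growth factor receptors, stood at 5.13, 3.00 and 1.93 CPM against 58.3 CPM, and its call ended without glioma 2 (limma adjusted p = 0.0599). The list had 1 gene called higher without glioma 1, without glioma 2 or without EGFRvIII replicate 3, and 1 called lower in the same fits. Of 20 measured genes of the oxidative stress response, 0 were called higher and 4 lower by limma, and 16 lay below the culture in all 3 gliomas. Gstm1, a glutathione transferase, stood at 6.79, 8.42 and 22.1 CPM against 84.7 CPM, and its call ended without glioma 2 (limma adjusted p = 0.0561) or EGFRvIII replicate 3. The count called lower was 1 without glioma 1 or EGFRvIII replicate 3, 0 without glioma 2, 2 without EGFRvIII replicate 1 and 6 without EGFRvIII replicate 2. Vim, which encodes the intermediate filament vimentin, stood at 236, 100.5 and 1028 CPM in gliomas 1, 2 and 3 and 2693 CPM in the culture and was not called (limma adjusted p = 0.122). The glioma values spread over a wide range, and glioma 3 lay nearest to the culture.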
